A study of Homo sapiens with 17 samples.

Results

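The genes described here are 43 interferon-stimulated and antigen presentation genes, chosen by symbol from the 57820 genes of the deposited tables. They are 3 RNA sensors, 4 transcription factors, 13 antiviral effectors, 6 other induced proteins, 6 genes of the ISG15 system and ADP-ribosylation, 9 genes of class I antigen presentation and 2 guanylate-binding proteins. TAP2 is carried by 2 Ensembl rows, ENSG00000204267 and the weaker ENSG00000250264, so 44 rows were followed. Poly-A RNA of 17 cultures from 2 squamous cancer lines was sequenced, 13 libraries of the esophageal line KYSE140 and 4 of the lung line SKMES1.

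In KYSE140, the enhancer e1 of the transcription factor gene SOX2 was repressed by CRISPR interference with 1 of 2 guides, against 2 control guides with no site in the genome (CRISPRi control). SOX2 itself was cut with active Cas9 and 1 of 3 guides, numbered 2, 3 and 4, against a guide to AAVS1 and a guide to a chromosome 2 site (Cas9 control), so those control cells also carried cuts. The BET protein degrader ARV-771 was given at 0.5 µM for 6 h in 2 replicates, against 2 DMSO replicates of 6 h. In SKMES1, e1 was activated with dCas9-VP64 and guide 1 or 3, against 2 control guides (CRISPRa control). Every CRISPR culture carried lentiviral vectors and antibiotic selection, each guide was 1 library, and p-values therefore measure the spread between guides or cultures, which may be partly technical.

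Interferons bind receptors whose kinases activate transcription factors. STAT2 and IRF9 are among those that act at interferon-stimulated response elements to switch on antiviral genes, while cytosolic sensors such as RIG-I (DDX58) and MDA5 (IFIH1) detect viral RNA and start interferon production. The same response raises class I presentation, in which proteasome subunits cut proteins, the TAP transporter carries the peptides into the endoplasmic reticulum, and HLA heavy chains with beta-2-microglobulin (B2M) show them at the cell surface.

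The promoters of the members were searched for the core of that response element, GAAANNGAAA, on both strands and with overlapping matches kept. The window of a gene was the 300 bases around the first start site listed for it by RefSeq on GRCh38.p14, 250 before it and 50 after it. Other start sites of a gene were not searched. Of the 35 members with a window, 21 (60%) held the core, against 996 of 27305 windows of all genes (3.65%). The list was chosen as interferon-stimulated and antigen presentation genes, so a high share comes with that choice and is not a result of these libraries. OAS2, USP18, MX2, GBP2, IFIT2, IRF7, OASL and HLA-E had no window. The core was present in 15 of the 25 windows of members that rose in the SOX2 knockout and in 6 of the other 10, which is the same share. Those other 10 include members that were not tested. No match was found in the windows of the transcription factors IRF1, IRF9 and STAT2, of HLA-B and HLA-C, or of OAS1 and RSAD2. A match is a run of letters and not a shown binding site. The matches below are from the members whose values carry the report, 5′ to 3′ on the gene's strand, with the core or its reverse complement in capitals.
ISG15, chr1:1013380-1013409, plus strand: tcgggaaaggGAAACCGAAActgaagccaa
IFI6, chr1:27672288-27672317, minus strand: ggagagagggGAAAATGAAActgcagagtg
IFI27, chr14:94110618-94110647, plus strand: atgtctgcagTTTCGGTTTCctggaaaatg
IFIT1, chr10:89392510-89392539, plus strand: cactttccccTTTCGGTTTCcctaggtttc
OAS3, chr12:112938321-112938350, plus strand: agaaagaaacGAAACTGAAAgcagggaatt
B2M, chr15:44711369-44711398, plus strand: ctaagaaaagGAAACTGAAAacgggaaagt
TAP1, chr6:32853819-32853848, minus strand: aggcggccgcTTTCGATTTCgctttcccct
TAPBP, chr6:33314079-33314108, minus strand: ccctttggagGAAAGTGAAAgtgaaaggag
ISG15, IFI6, OAS3, B2M and TAPBP carried the core on their own strand, and IFI27, IFIT1 and TAP1 carried the one shown on the opposite strand.

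Several members are neighbours on the genome, and their positions on GRCh37, the assembly of the authors' hg19 tables, are given from GENCODE. The 4 IFIT genes lie between 91043451 and 91181362 of chromosome 10, and OAS1, OAS3 and OAS2 lie side by side between 113343661 and 113449528 of chromosome 12. TAP2, PSMB8, PSMB9 and TAP1 lie between 32781544 and 32827628 of chromosome 6, where the 2 TAP2 rows overlap each other and PSMB9 overlaps PSMB8 and TAP1 on the other strand. Expected counts of IRF1, IRF9, HLA-C, HLA-E and TAPBP were not whole (beyond 0.005) in any of the 17 libraries, those of HLA-B in 16 and those of each TAP2 row in 15. Reads of these genes were therefore divided with other genes and their values are less certain.

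Libraries held between 7260730 and 15781463 expected counts, so that 3 counts stood for 0.19 to 0.413 CPM (counts scaled to a common library total), an error of counting only. SOX2, the targeted gene, was at 379 and 365 TPM (transcript abundance corrected for length and library total) with the CRISPRi control guides and at 120 and 128 TPM with the e1 guides. It was at 397 and 428 TPM in the Cas9 controls and at 103, 125 and 221 TPM with knockout guides 2, 3 and 4. With DMSO it was at 236 and 223 TPM and with ARV-771 at 9.80 and 10.5 TPM, and e1 activation took it from 1.68 and 1.53 TPM to 224 and 316 TPM. Knockout guide 4, the SKMES1 e1 guides and the CRISPRa controls differed most from their replicates. Over all genes the chi-square relative to its degrees of freedom was 13.4 between knockout guides 2 and 4, 13.35 between the SKMES1 e1 guides and 28.8 between the CRISPRa controls, against 2.19 to 6.79 for the other pairs. The second CRISPRa control held 118 TPM of KRT14, a basal keratin at 0.31 TPM or less in the other 3 SKMES1 libraries. In SKMES1 the squamous markers KRT5 and DSG3 were near absent, at 0.05 to 1.26 TPM and at 0.10 TPM or less. TP63 was at 1.87 to 3.79 TPM. SFN, of the same list, was at 480 and 812 TPM in the CRISPRa controls and at 321 and 344 TPM with the SKMES1 e1 guides. The CRISPRa controls were higher for SFN than the CRISPRi controls, at 356 and 354 TPM (log2 difference 0.74, SE 0.23). The Cas9 controls were at 567 and 553 TPM. A member was called changed at an adjusted p below 0.05 with a fold change over 1.5 in edgeR's quasi-likelihood test, with Benjamini-Hochberg adjustment over all genes tested, and all adjusted p-values below are from this test. In bulk RNA, more cells expressing a gene and more RNA per cell cannot be told apart.

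At rest, KYSE140 expressed the presentation genes far more than the antiviral genes. In the CRISPRi controls the 44 rows summed to 942 and 952 TPM, of which B2M alone took 58.9% and 59.3%, and the members outside class I presentation summed to 149.5 and 148.6 TPM. With the SOX2 knockout guides these members outside class I summed to 587, 551 and 436 TPM, against 145.5 and 166.7 TPM in the Cas9 controls. With the e1 guides they summed to 202 and 193 TPM, and with ARV-771 to 71.3 and 72.5 TPM, against 122 and 125 TPM with DMSO. In none of these 3 pairs of groups did the sums overlap. The sums were not set against those of other genes. With ARV-771 few of all genes called by limma on log2(TPM + 1) were higher, 122 of 6446, so a lower TPM sum is not particular to the members. In SKMES1 the members outside class I summed to 974 and 1516 TPM in the controls and to 1168 and 999.8 TPM with the e1 guides, and here the groups overlapped.

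**Figure D1:**
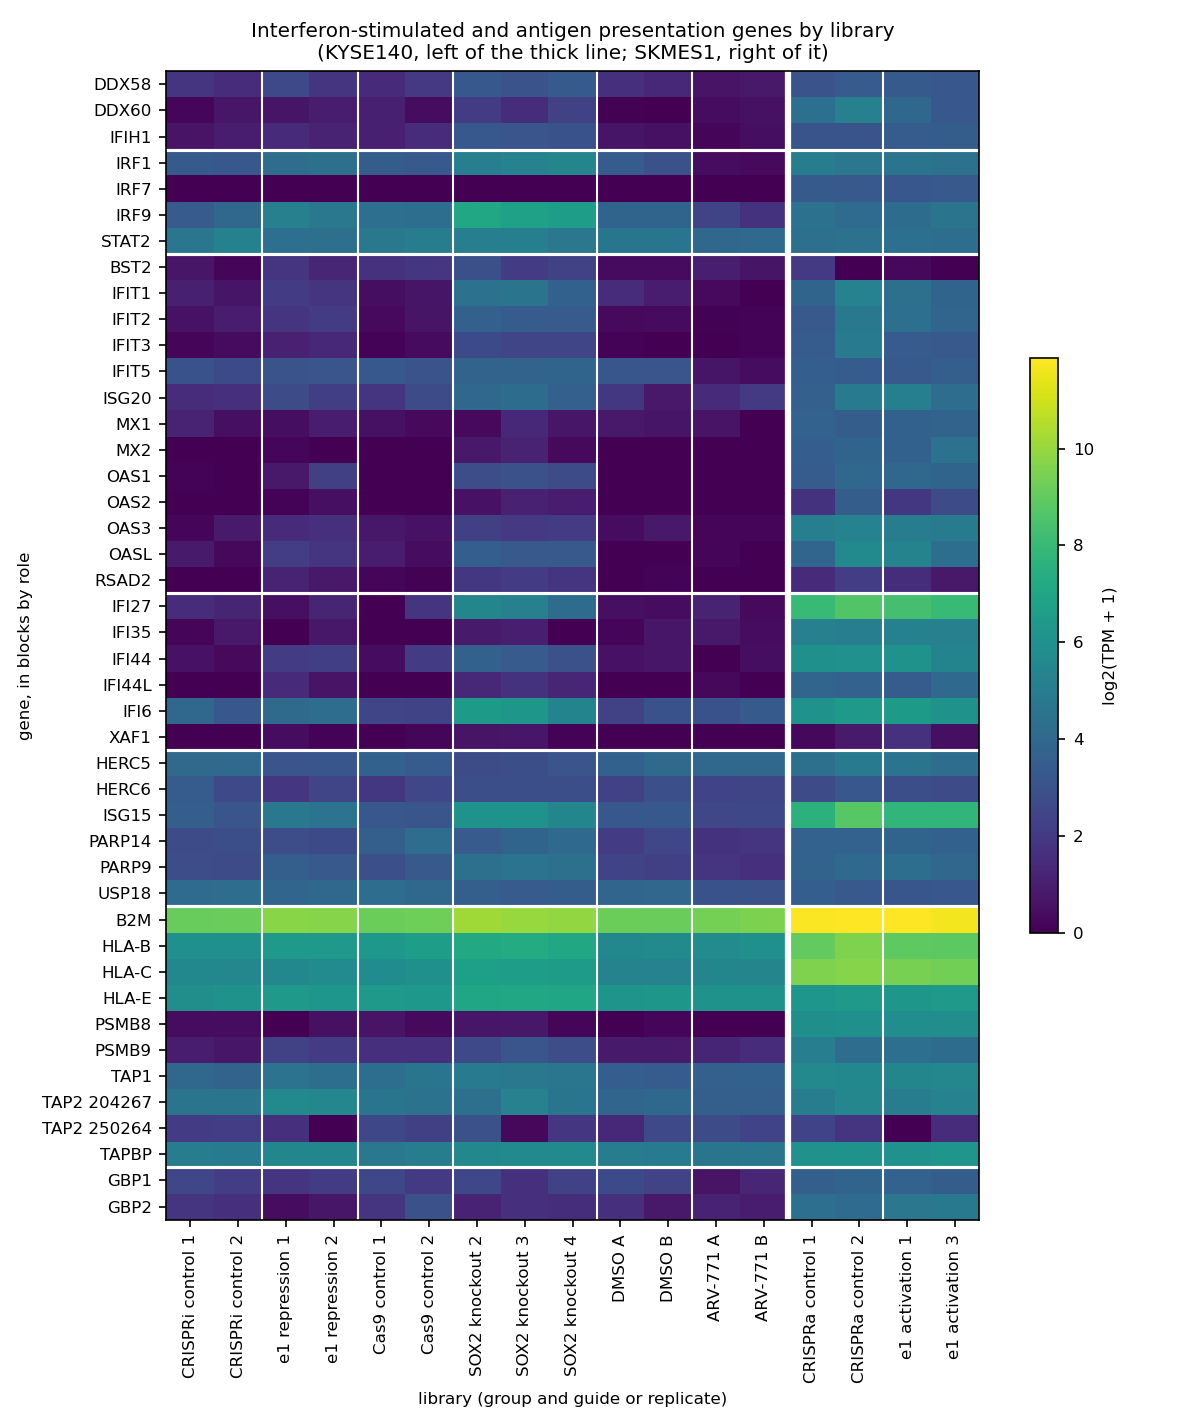
Level of each of the 44 rows (vertical axis, in blocks by role) in each of the 17 libraries (horizontal axis), as log2(TPM + 1) by colour. The antiviral blocks are brighter in the 3 SOX2 knockout libraries than in the other KYSE140 libraries, B2M is the brightest row throughout, and IRF7 is at 0 in all 13 KYSE140 libraries.

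SOX2 knockout was compared with the Cas9 controls to ask which genes follow the loss of SOX2. All 3 sensors, IRF1 and IRF9, every tested antiviral effector and 6 rows of class I presentation rose, while GBP2 and HERC5 fell. Of the 44 rows, 38 passed the filter on low counts, 29 were called higher and 2 lower, where 16.3% of all genes tested were called higher and 13.5% lower. The median log2 fold change was 1.83 over the tested members and -0.01 over all genes tested. Members that pass the filter only through the knockout libraries have to differ, so the 25 members that reached it in every control library were also counted: 16 were higher, 2 lower, and their median was 0.94. IFI35, IRF7, MX1, MX2, PSMB8 and XAF1 were not tested.

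The sensors were low in control cells. IFIH1, which encodes MDA5, was at 1.06 and 1.86 TPM in the Cas9 controls and at 8.69, 7.69 and 7.06 TPM with knockout guides 2, 3 and 4. Every knockout library lay above both controls, and the log2 fold change was 2.74 (SE 0.22, adjusted p = 9.1e-07). DDX58, which encodes RIG-I, went from 1.72 and 2.88 TPM to 8.61, 7.08 and 9.35 TPM, again without overlap (log2 fold change 1.97, SE 0.18). DDX60, a helicase linked to RNA sensing, rose by 2.91 on the log2 scale (SE 0.32).

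Among the transcription factors, IRF9 showed the highest level reached. IRF9, a DNA-binding factor that acts together with STAT2, was at 19.1 and 18.2 TPM in the Cas9 controls and at 133, 111 and 100 TPM in the knockout. The groups were far apart, with a log2 fold change of 2.76 (SE 0.19, adjusted p = 2.5e-07). IRF1, an activator of interferon and class I genes, was at 10.2 and 9.03 TPM against 32.3, 37.8 and 40.6 TPM (log2 fold change 2.01, SE 0.13, adjusted p = 9.0e-08). STAT2, the partner of IRF9, did not pass the test: it was at 25.5 and 31.9 TPM in control cells and at 33.1, 33.3 and 25.1 TPM in the knockout, where the groups overlapped (log2 fold change 0.20, SE 0.10, adjusted p = 0.122). IRF7, which amplifies interferon production, had 0 counts in all 13 KYSE140 libraries, which allows a level of up to 0.0221 CPM over their summed counts.

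The antiviral effectors gave the largest rises, and all 11 tested were called higher. Only IFIT5 and ISG20 among them reached the filter on low counts in both controls. The others needed the knockout libraries to pass it and so had to differ, and that all were called is no result of its own. IFIT1, which binds foreign 5′ RNA ends, was at 0.36 and 0.58 TPM in control cells and at 20.9, 22.4 and 11.9 TPM with guides 2, 3 and 4. Guide 4 lay below the other 2 guides but well above both controls, and the log2 fold change was 5.51 (SE 0.44, adjusted p = 8.0e-07). Its neighbour IFIT2 went from 0.23 and 0.53 TPM to 11.5, 9.88 and 9.59 TPM (log2 fold change 5.02, SE 0.28, adjusted p = 3.7e-08), and IFIT3 rose by 5.14 on the log2 scale (SE 0.44). IFIT5 was already at 8.68 and 7.08 TPM in the controls and rose only to 12.8, 12.9 and 13.0 TPM (log2 fold change 0.92, SE 0.15). The 4 neighbouring genes thus rose from different starting levels by different amounts.

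OASL, a 2′-5′-oligoadenylate synthetase-like protein, was at 0.91 and 0.30 TPM in control cells and at 10.7, 8.83 and 9.03 TPM in the knockout (log2 fold change 4.82, SE 0.34, adjusted p = 2.7e-07). Of the synthetases that activate RNase L, OAS3 rose by 3.08 on the log2 scale (SE 0.36). OAS1 had 0 counts in both controls and was at 5.93, 6.67 and 5.74 TPM in the knockout. Taking 3 counts over the control group as the floor, OAS1 was at least 26.3-fold higher. OAS2 had 1 count in the 2 controls together and 36 in the knockout, a ratio of 19.3 in CPM with a 95% counting interval of 3.26 to 785. RSAD2 (viperin, which makes a chain-terminating nucleotide) rose by 4.74 on the log2 scale (SE 0.46) to 2.79, 3.16 and 2.56 TPM. ISG20, an exonuclease, rose by 1.90 (SE 0.31), and BST2 (tetherin), which holds budding virions, rose by 1.51 (SE 0.48, adjusted p = 0.0203). MX1, a dynamin-like GTPase, stayed at 1.53 TPM or less in all 5 libraries and was not tested.

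IFI6, a mitochondrial and endoplasmic reticulum protein of the response, was at 4.60 and 4.45 TPM in the Cas9 controls and at 88.3, 78.0 and 39.7 TPM in the knockout. Guide 4 gave the lowest of the 3 values, and all 3 were above the controls (log2 fold change 4.16, SE 0.41, adjusted p = 4.5e-06). IFI27 was listed at 0 and 2.60 TPM in control cells and at 42.3, 35.5 and 17.1 TPM in the knockout (log2 fold change 4.59, SE 0.68, adjusted p = 1.2e-04). IFI44 rose by 3.81 on the log2 scale (SE 0.50) although its controls differed, at 0.31 and 3.33 TPM. IFI44L had 1 count in the controls together and 65 in the knockout.

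ISG15, the ubiquitin-like modifier, was at 8.28 and 7.80 TPM in control cells and at 68.1, 68.2 and 42.0 TPM in the knockout, without overlap (log2 fold change 3.08, SE 0.28, adjusted p = 2.5e-06). The genes of its own machinery did not move as one. HERC5, the main ligase that attaches ISG15, fell from 11.8 and 9.92 TPM to 5.55, 6.18 and 7.81 TPM (log2 fold change -0.66, SE 0.14, adjusted p = 0.00161), a call lost without the AAVS1 control (-0.53). HERC6, its paralog, rose by 1.19 on the log2 scale (SE 0.16). USP18, which removes ISG15 and dampens receptor signalling, had a log2 fold change of -0.47 (SE 0.14), under the fold required. PARP9, an ADP-ribosyltransferase family member that acts with the ligase DTX3L, went from 6.53 and 8.90 TPM to 19.9, 21.6 and 19.9 TPM (log2 fold change 1.60, SE 0.12, adjusted p = 5.1e-07). PARP14 was between 9.68 and 17.8 TPM in all 5 libraries, and its groups overlapped.

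The class I genes rose by less, from higher levels. B2M was at 585 and 605 TPM in the Cas9 controls and at 1149, 1052 and 994 TPM in the knockout, without overlap (log2 fold change 1.03, SE 0.09, adjusted p = 1.5e-06). The heavy chain genes rose by similar amounts on the log2 scale: HLA-B by 0.94 (SE 0.11), HLA-C by 0.94 (SE 0.09) and HLA-E by 0.86 (SE 0.09). HLA-B was at 79.0 and 98.4 TPM against 147, 157 and 136 TPM, and HLA-C at 53.5 and 60.5 TPM against 101, 97.9 and 91.6 TPM. Tapasin (TAPBP), which loads peptides, rose by 0.84 (SE 0.08), and PSMB9, an immunoproteasome subunit, went from 2.08 and 2.05 TPM to 5.15, 7.69 and 5.98 TPM (log2 fold change 1.76, SE 0.44, adjusted p = 0.00558). TAP1, a chain of the peptide transporter, did not reach the fold required (log2 fold change 0.50, SE 0.11, adjusted p = 0.00229). The main TAP2 row, ENSG00000204267, was at 23.6 and 20.6 TPM against 19.6, 37.1 and 23.5 TPM, where the groups overlapped (log2 fold change 0.12, SE 0.09). GBP2, a guanylate-binding GTPase, fell from 2.60 and 6.69 TPM to 1.21, 2.13 and 1.95 TPM (log2 fold change -1.26, SE 0.36, adjusted p = 0.0112), and the call was lost without the chromosome 2 control (-0.64).

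Knockout guide 4, which left the most SOX2 RNA, gave the lowest TPM of the 3 guides for 17 of the 29 risen members, and guides 2 and 3 for 6 each. The share over all risen genes was not counted, and guide 4 also differed from guide 2 over all genes (chi-square relative to its degrees of freedom 13.4). A relation to the SOX2 level would rest on a single library and was not tested. Without guide 4, 29 members were again called higher and 2 lower.

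**Figure D2:**
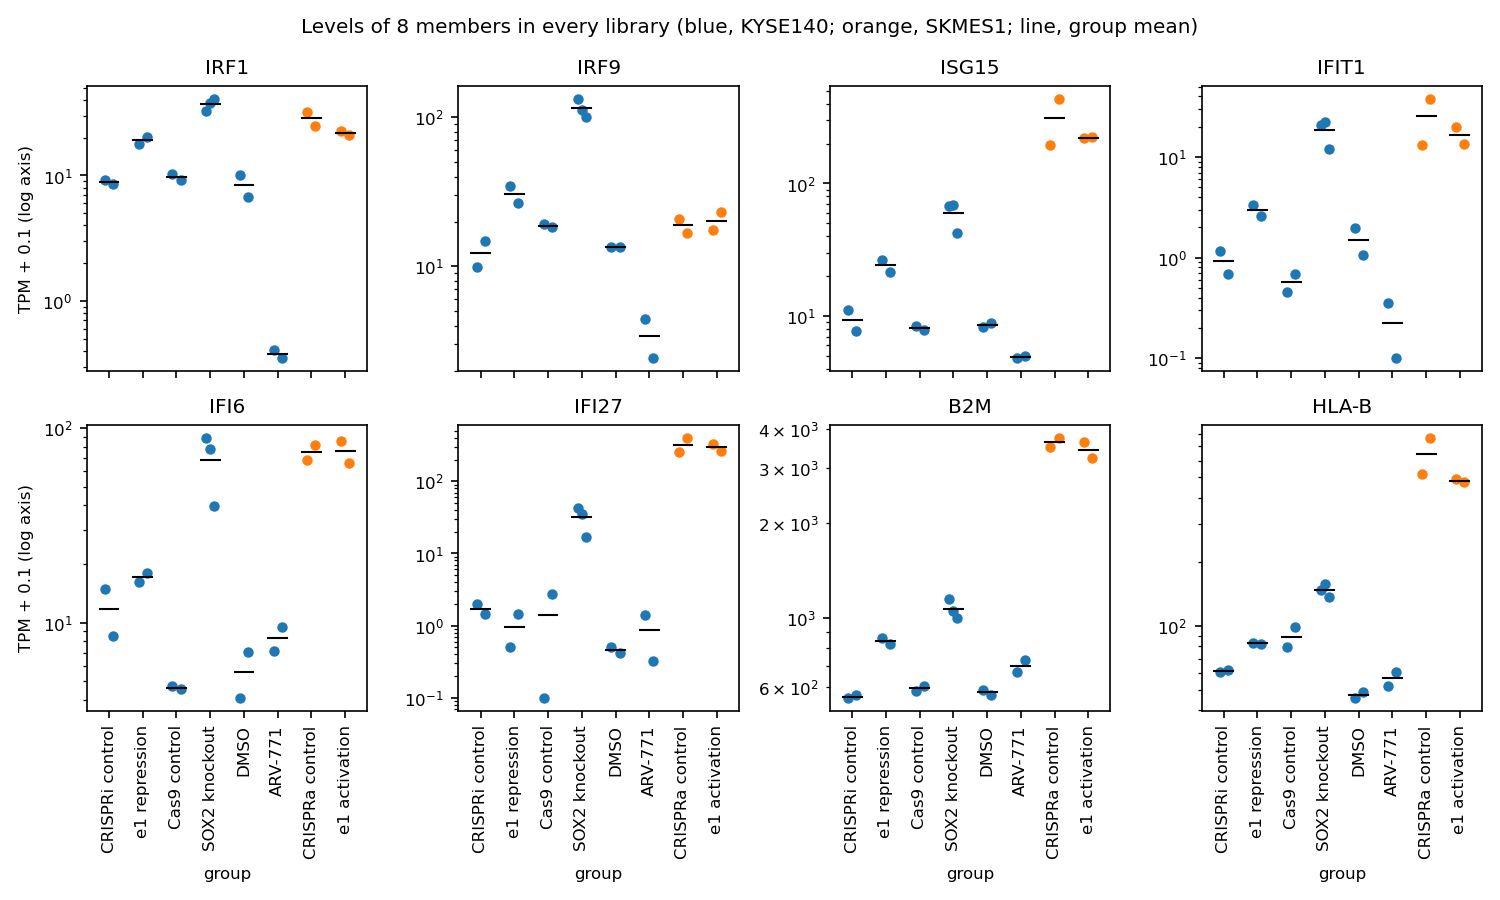
TPM + 0.1 on a log axis (vertical, own scale per gene) of 8 members in each group (horizontal), 1 point per library, blue for KYSE140 and orange for SKMES1, with a line at the group mean. All 8 genes are highest among KYSE140 groups in the SOX2 knockout, and IRF1, IRF9 and IFIT1 are lowest with ARV-771.

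Repression of e1 was compared with the CRISPRi controls to ask which genes follow the loss of the enhancer. The sensors, IRF1 and IRF9, the IFIT genes 1 to 3, ISG15 and OASL rose, and GBP2, HERC5, HERC6 and the weaker TAP2 row fell. Of the 44 rows, 33 were tested, 16 were called higher and 4 lower, where 9.30% of all genes tested were called higher and 10.7% lower. The median log2 fold change was 0.60 over the tested members and 0.00 over all genes. Among the 24 members that reached the filter in every control library, 8 were higher and 4 lower, with a median of 0.48. BST2, IFI27, IFI35, IFI44L, IRF7, MX1, MX2, OAS1, OAS2, PSMB8 and XAF1 were not tested.

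IRF1 was at 9.17 and 8.38 TPM with the control guides and at 17.9 and 20.1 TPM with the e1 guides (log2 fold change 1.03, SE 0.14, adjusted p = 2.2e-05). IRF9 went from 9.78 and 14.7 TPM to 34.7 and 26.4 TPM (log2 fold change 1.23, SE 0.20, adjusted p = 1.5e-04). Both e1 guides lay above both control guides for each gene. STAT2 was at 24.2 and 36.7 TPM against 19.4 and 19.7 TPM, with a log2 fold change of -0.55 (SE 0.10) that was under the fold required. The sensors IFIH1 (log2 fold change 1.27, SE 0.42), DDX58 (0.68, SE 0.21) and DDX60 (1.53, SE 0.53) were called higher with adjusted p-values of 0.0218, 0.0183 and 0.0276, but the TPM values of DDX58 and DDX60 overlapped between the groups.

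IFIT2 was at 0.50 and 0.90 TPM with the control guides and at 2.54 and 3.17 TPM with the e1 guides (log2 fold change 2.03, SE 0.33, adjusted p = 1.3e-04). IFIT1 rose by 1.82 on the log2 scale (SE 0.44) and IFIT3 by 2.80 (SE 0.60), whereas IFIT5 had a log2 fold change of 0.26 (SE 0.16, adjusted p = 0.204). OASL went from 0.80 and 0.19 TPM to 3.50 and 2.54 TPM (log2 fold change 3.37, SE 0.53, adjusted p = 8.9e-05). RSAD2 had 0 counts in both controls and 42 with the e1 guides, at least 16.3-fold higher against a floor of 3 counts over the group. IFI44 rose by 3.27 on the log2 scale (SE 0.66), from 0.50 and 0.24 TPM to 3.23 and 3.60 TPM. IFI6 was at 14.8 and 8.46 TPM against 16.1 and 17.9 TPM and was not called (log2 fold change 0.58, SE 0.26, adjusted p = 0.0845). IFI27 stayed at 1.88 TPM or less in all 4 libraries.

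ISG15 was at 10.9 and 7.66 TPM with the control guides and at 26.4 and 21.6 TPM with the e1 guides, without overlap (log2 fold change 1.38, SE 0.25, adjusted p = 3.8e-04). HERC5 fell from 15.9 and 15.8 TPM to 7.88 and 8.10 TPM (log2 fold change -1.05, SE 0.11, adjusted p = 1.3e-06), and HERC6 fell from 9.90 and 5.14 TPM to 2.73 and 4.59 TPM (log2 fold change -0.88, SE 0.17, adjusted p = 6.1e-04). The modifier and the ligase that attaches it therefore moved in opposite directions in both e1 repression and the SOX2 knockout. PARP9 rose by 0.60 on the log2 scale (SE 0.13).

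Most class I genes stayed under the fold required. B2M was at 555 and 564 TPM against 858 and 826 TPM, without overlap but with a log2 fold change of 0.57 (SE 0.06, adjusted p = 7.3e-07) that stayed under the fold required. TAPBP (0.56, SE 0.07), TAP1 (0.52, SE 0.12), HLA-B (0.44, SE 0.07) and HLA-E (0.37, SE 0.08) were likewise higher by less than 1.5-fold. HLA-C overlapped between the groups, with a log2 fold change of 0.08 (SE 0.09, adjusted p = 0.49). The main TAP2 row rose from 22.7 and 22.8 TPM to 49.8 and 43.7 TPM (log2 fold change 1.01, SE 0.08, adjusted p = 3.4e-08), while the row ENSG00000250264 fell by 1.70 on the log2 scale (SE 0.63, adjusted p = 0.0392). PSMB9 was at 0.89 and 0.65 TPM against 3.88 and 3.23 TPM (log2 fold change 2.00, SE 0.64, adjusted p = 0.0189). The call of PSMB9 was lost when any 1 of the 4 libraries was left out, with log2 fold changes of 1.78 to 2.24. That of the weaker TAP2 row was lost without the first control guide (-1.70), the second control guide (-1.69) or e1 guide 2 (-0.66), whose own library listed the row at 0. GBP2 fell from 2.44 and 2.05 TPM to 0.31 and 0.62 TPM (log2 fold change -2.15, SE 0.47, adjusted p = 0.00162).

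**Figure D3:**
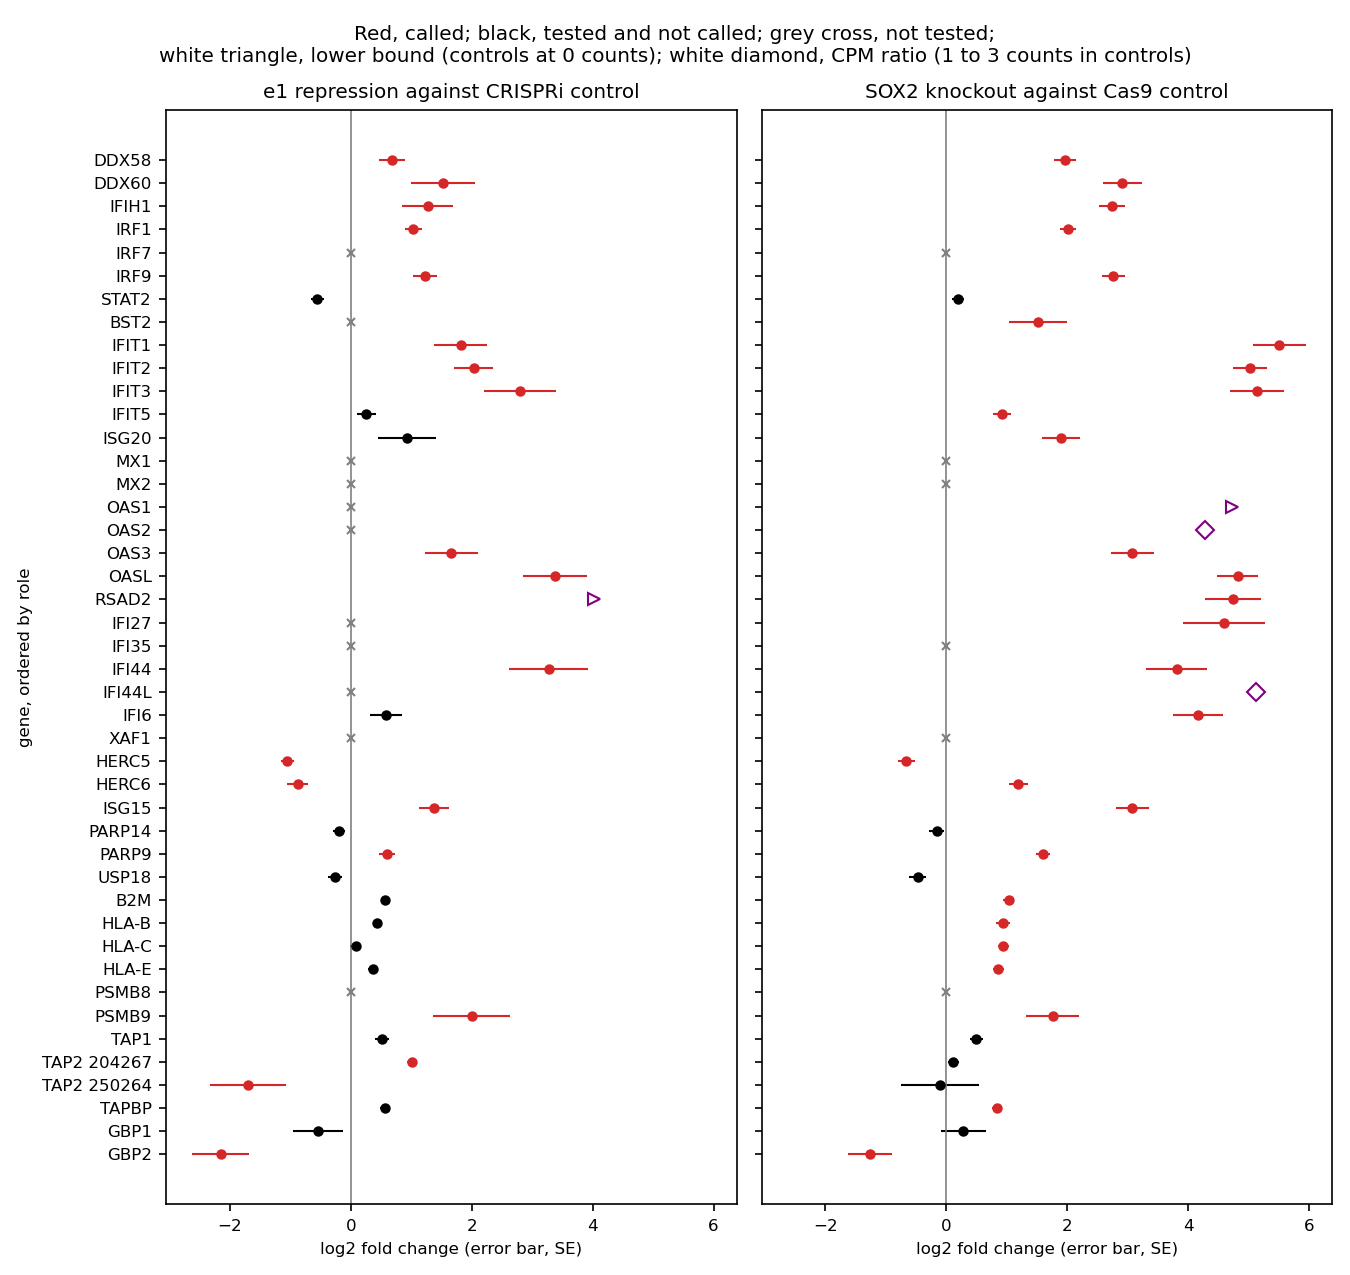
Log2 fold change with its SE (horizontal axis) of every row (vertical axis, by role) in e1 repression and in the SOX2 knockout. Red points are called and black points are not, grey crosses at 0 mark members not tested, white triangles are lower bounds and white diamonds are CPM ratios where the controls hold at most 3 counts. IFIT1 stands at 5.51 in the knockout and 1.82 in e1 repression, and HERC5 and GBP2 lie below 0 in both.

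The e1 repression and knockout comparisons share no libraries. Of the 16 members higher with e1 repression, 15 (93.8%) were also higher in the knockout, which is 51.7% of the 29 there, and the main TAP2 row was the exception. GBP2 and HERC5 were lower in both, and HERC6 was called in opposite directions. In 13 of the 15 shared risers the knockout gave the larger rise. Neither the overlap nor the larger rise was counted over all genes, of which 16.3% were called higher in the knockout. The paper describes e1 repression as changing SOX2-regulated genes much as the knockout did. The difference itself was tested in 1 fit of the 4 groups, over 38 tested members. The effect of e1 repression was called lower than that of the knockout for 14 members and higher for 1, where 8.37% of all genes tested were called lower and 8.21% higher. The median difference was -0.91 on the log2 scale over the tested members and 0.03 over all genes. Members that pass the filter only through the knockout libraries have to differ here too. No subset expressed in every control was counted for this test. IFI27 was such a member, with 6 counts or fewer in each control and e1 repression library and 142, 63 and 44 in the knockout. The differences were -5.15 for IFI27 (SE 1.29, adjusted p = 0.00809), -3.67 for IFIT1 (SE 0.80, adjusted p = 0.0033), -3.55 for IFI6 (SE 0.61, adjusted p = 6.3e-04) and -2.96 for IFIT2 (SE 0.51, adjusted p = 6.1e-04). They were smaller for IRF9 (-1.52, SE 0.36), ISG15 (-1.68, SE 0.44) and IRF1 (-0.95, SE 0.18). Those of B2M (-0.44, SE 0.11), HLA-B (-0.48, SE 0.14) and HLA-E (-0.46, SE 0.13) were below the fold required. OASL (-1.43, SE 0.78, adjusted p = 0.198) and PSMB9 (0.25, SE 0.70, adjusted p = 0.831) were not called. The CRISPR tool and vector differ between the experiments as well as the target, so the effects of the tools and of the targets cannot be told apart.

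The genes around the members were followed in fixed lists. None of 8 interferon genes (IFNA1, IFNB1, IFNE, IFNK, IFNG and IFNL1 to IFNL3) reached the filter in these comparisons, with ARV-771 or with e1 activation. Their summed level was 0.15 to 0.71 TPM in the Cas9 controls and 1.76 to 4.94 TPM in the knockout, where IFNL1 was at 0.94, 0.30 and 1.98 TPM and was listed at 0 in both controls. The summed level of the 8 was 0.39 to 0.50 TPM with the CRISPRi control guides and 0.70 to 1.89 TPM with the e1 guides. Beside the 16.3% of all genes called higher in the knockout, 2 of 9 receptor and kinase genes rose there, IFNGR1, a chain of the interferon gamma receptor (log2 fold change 1.35, SE 0.10), and the kinase JAK1 (0.65, SE 0.09). With e1 repression, where 9.30% of all genes were called higher, 2 of the 9 rose, IFNGR1 (0.69, SE 0.11) and IFNGR2 (0.61, SE 0.14). Of the nucleic acid sensing genes, 3 of 10 tested rose and 1 fell in the knockout, where the kinase gene IKBKE was at 2.29 (SE 0.30) and SAMHD1, a nucleotide hydrolase, at -1.86 (SE 0.31). With e1 repression 1 of 9 tested rose, IKBKE (2.24, SE 0.23), and 1 fell, SAMHD1 (-0.75, SE 0.22). Of 15 further interferon-stimulated genes, 11 were tested in the knockout and 6 rose, among them SAMD9 (4.28, SE 0.17), an antiviral restriction factor, and DTX3L, the partner of PARP9 (1.25, SE 0.10). With e1 repression 10 were tested and 3 rose, SAMD9 (2.22, SE 0.14) and DTX3L (0.95, SE 0.11) among them. Of 12 further class I genes, 5 of 10 tested rose in the knockout and 3 of 10 with e1 repression, with ERAP2, a peptide-trimming aminopeptidase, at 2.33 (SE 0.11) and 1.57 (SE 0.12). SOCS1, an inhibitor of JAK kinases, fell by 0.75 (SE 0.25) in the knockout and by 1.76 (SE 0.19) with e1 repression, while SOCS3 rose by 1.28 (SE 0.22) and 1.05 (SE 0.16). None of the 5 class II genes was tested in either comparison.

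Markers of other cells and of squamous differentiation moved in the same libraries. The leukocyte list, of whose 6 genes only CD68 passed the filter on low counts in both comparisons, summed to 3.61 to 5.04 TPM in the Cas9 controls and 54.2 to 71.4 TPM in the knockout, and to 0.84 to 1.75 TPM against 25.0 to 27.3 TPM with e1 repression. CD68, a lysosomal protein gene, made up most of this, and it rose by 4.14 (SE 0.15) and 4.84 (SE 0.22) on the log2 scale. The lineage markers CD3E and MS4A1 were listed at 0 in all 9 of these libraries and PTPRC was at 0.23 TPM or less. The squamous list summed to 7432 to 7470 TPM in the Cas9 controls and 25070 to 30014 TPM in the knockout, where 5 of its 6 genes rose and TP63 fell. With e1 repression it summed to 10548 to 10691 TPM, against 6319 to 6338 TPM, with 3 of 6 genes higher and TP63 lower. COL1A1 of the fibroblast list also rose, by 2.17 (SE 0.11) and 1.29 (SE 0.09). The part of these markers in the members' changes was not tested.

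The KYSE140 controls themselves differed at some members. The calls were few and changed with the processing, so no share above that of all genes is drawn from them. Between the Cas9 and CRISPRi controls 4 of 28 tested members (14.3%) were called, against 7.82% of all genes. PARP14 was higher in the Cas9 controls (log2 fold change 1.13, SE 0.12, adjusted p = 2.5e-07), and IFI6 (-1.39, SE 0.38), HERC6 (-0.78, SE 0.18) and HERC5 (-0.66, SE 0.13) were lower. The call of IFI6 was lost without the first CRISPRi control (-0.90) or the chromosome 2 guide (-1.35), and that of HERC5 without the chromosome 2 guide (-0.56). Between DMSO and the CRISPRi controls 3 of 28 (10.7%) were called, all lower with DMSO, against 4.26% of all genes: DDX60 (-2.86, SE 0.99), IFI6 (-0.99, SE 0.34) and PARP14 (-0.70, SE 0.13). The call of DDX60 was lost when any 1 of the 6 control libraries of that fit was left out, at -5.88 to -1.94, and that of IFI6 without the first CRISPRi control (-0.50) or DMSO replicate A (-0.66). IFI6 was thus at 14.8 and 8.46 TPM in the CRISPRi control libraries and between 4.01 and 6.94 TPM in the other 4 control libraries. These comparisons share the CRISPRi control libraries with e1 repression.

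ARV-771 was compared with DMSO to ask which genes need BET proteins within hours. IRF1, IRF9, IFIT1, IFIT5 and GBP1 fell with TMM (trimmed mean of M values, the main scale). They also fell with library sizes alone and with libraries scaled to mitochondrially encoded genes. Both of these scales move all genes down, so they are no further check of a fall. Most class I genes were higher on the TMM scale, but of B2M, TAP1, HLA-B, HLA-C and HLA-E only B2M passed with library sizes alone and none on the mitochondrial scale. Of the 44 rows, 25 were tested, 9 were called higher and 5 lower, where 21.2% of all genes tested were called higher and 31.7% lower. The split was 3 higher and 8 lower with library sizes alone, 0 and 13 on the mitochondrial scale, and 0 and 8 with limma on log2(TPM + 1). Over all genes, 47.8%, 71.1% and 48.9% were called in these 3 fits. Few of them were higher: 381 of 6457, 79 of 9603 and 122 of 6446. Over all genes with a mean count of 50 or more, the median lay at 0.01 on the TMM scale, -0.45 with library sizes alone and -1.07 on the mitochondrial scale. The other 19 rows were not tested, 10 of them antiviral effectors.

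IRF1 was at 9.96 and 6.60 TPM with DMSO and at 0.31 and 0.25 TPM with ARV-771. The groups were far apart (log2 fold change -3.38, SE 0.30, adjusted p = 3.2e-10), and the value was -4.45 on the mitochondrial scale. IRF9 fell from 13.4 and 13.3 TPM to 4.35 and 2.32 TPM (log2 fold change -2.12, SE 0.24, adjusted p = 2.0e-08). IFIT5 fell from 8.09 and 7.67 TPM to 0.59 and 0.32 TPM (log2 fold change -3.30, SE 0.23, adjusted p = 4.1e-12), and IFIT1 from 1.86 and 0.96 TPM to 0.25 and 0 TPM (log2 fold change -2.92, SE 0.76, adjusted p = 0.00138). GBP1 fell from 5.39 and 4.33 TPM to 0.54 and 1.45 TPM (log2 fold change -1.42, SE 0.45, adjusted p = 0.0061). The calls of IFIT1 and GBP1 depended on single libraries: IFIT1 lost its call without DMSO replicate A (-2.32) or ARV-771 replicate B (-1.77), and GBP1 without DMSO replicate A (-0.95) or ARV-771 replicate A (-1.25), and also with DESeq2. STAT2 was at 23.6 and 23.3 TPM against 14.9 and 15.8 TPM, a log2 fold change of 0.02 (SE 0.09) on the TMM scale and of -1.06 on the mitochondrial scale.

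B2M was at 586 and 567 TPM with DMSO and at 670 and 731 TPM with ARV-771, with a log2 fold change of 1.06 (SE 0.05) on the TMM scale, 0.60 with library sizes alone and -0.02 on the mitochondrial scale. HLA-B was at 45.8 and 48.5 TPM against 52.1 and 60.8 TPM, with values of 1.00, 0.54 and -0.08 on the same scales. HLA-C (0.81, 0.35 and -0.27), TAP1 (0.83, 0.37 and -0.24) and HLA-E (0.66, 0.20 and -0.42) followed the same order. A change of scale moves all genes by nearly the same amount, so these class I genes lay above the median of all genes whichever scale was used. Whether their absolute RNA level changed cannot be told apart from the choice of scale. IFI6 was at 4.01 and 6.94 TPM against 7.05 and 9.35 TPM (log2 fold change 1.34, SE 0.30), and 0.28 without a call on the mitochondrial scale. ISG15 was at 8.21 and 8.75 TPM against 4.71 and 4.87 TPM, with a log2 fold change of -0.09 (SE 0.32) on the TMM scale and a called -1.16 on the mitochondrial scale.

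**Figure D4:**
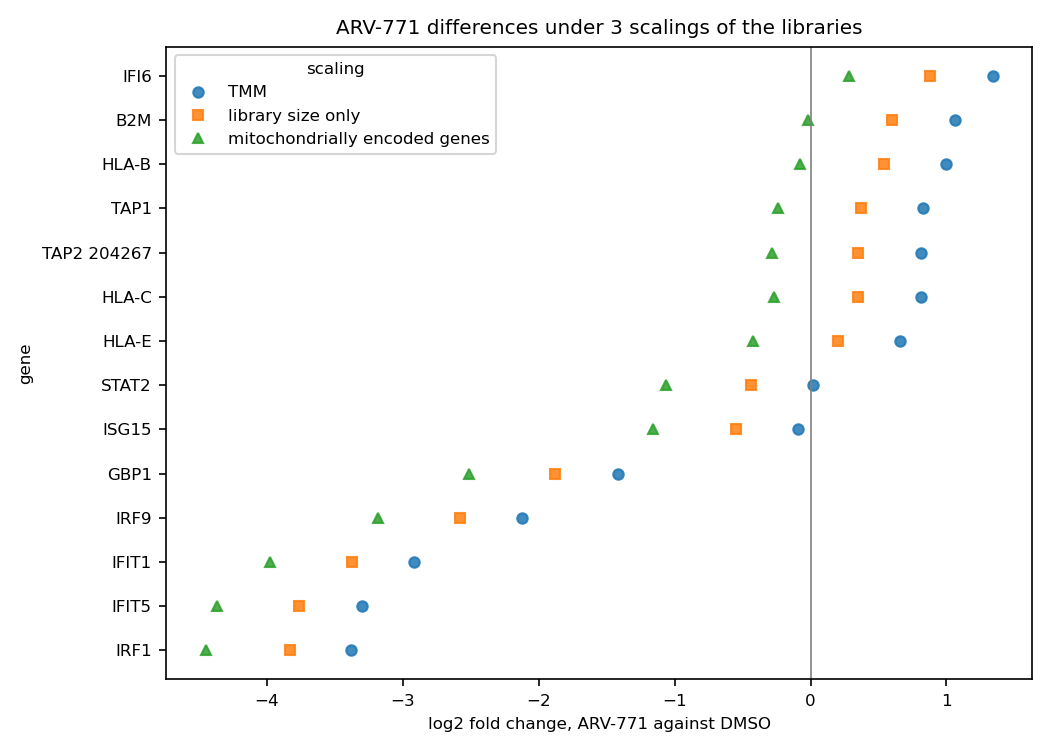
Log2 fold change of ARV-771 against DMSO (horizontal axis) of 14 member rows (vertical axis), with 1 symbol for each of 3 scalings. IRF1, IFIT5, IFIT1, IRF9 and GBP1 lie below 0 under all 3, while HLA-B moves from 1.00 to -0.08.

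The lists around the members moved in both directions with ARV-771 on the TMM scale, on which 31.7% of all genes tested were called lower and 21.2% higher. Of 9 receptor and kinase genes, 4 fell, the receptor gene IFNLR1 by 1.95 on the log2 scale (SE 0.16) among them, and the kinase gene TYK2 rose by 0.79 (SE 0.07). Of 8 tested nucleic acid sensing genes, 3 fell, namely the DNA sensor gene MB21D1 (-1.97, SE 0.20), the kinase gene TBK1 (-1.38, SE 0.12) and the adaptor gene MAVS (-0.84, SE 0.12), and 2 rose, SAMHD1 (1.18, SE 0.18) and IRF3 (0.62, SE 0.07). Of 4 tested genes of feedback and ISG15 conjugation, SOCS1 fell by 3.31 (SE 0.32) and SOCS3 by 2.28 (SE 0.32). Of 12 further class I genes, 8 of 10 tested were called higher on the TMM scale, with PSMB10 at 1.08 (SE 0.17) and PSME2 at 0.99 (SE 0.05). CD68 was at 0.44 and 0.36 TPM with DMSO and at 1.83 and 2.91 TPM with ARV-771, and CD3E and PTPRC were at 0.16 TPM or less.

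In SKMES1 the resting level was far higher. Its CRISPRa controls were compared with the CRISPRi controls of KYSE140, so line, CRISPR tool and vector cannot be told apart. Of the 44 rows, 42 were tested, 35 were higher in SKMES1 and 2 lower, where 30.4% of all genes tested were called higher and 25.2% lower. The median log2 difference was 3.38 over the tested members and 0.05 over all genes. Over the 24 members that reached the filter in every KYSE140 control, 17 were higher, 2 lower, and the median was 1.35.

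IRF7 was at 9.29 and 8.82 TPM in the SKMES1 controls, at least 75.3-fold above its floor in the KYSE140 controls. MX2, a GTPase that restricts retroviruses, was at 10.6 and 13.0 TPM against 0 counts, at least 107-fold higher, and RSAD2 at least 42.5-fold higher. PSMB8, an immunoproteasome subunit, was at 58.3 and 60.7 TPM against 0.33 and 0.32 TPM (log2 difference 7.07, SE 0.22, adjusted p = 1.7e-05), and stayed at 0.71 TPM or less in every KYSE140 library, knockout included. B2M was at 3515 and 3734 TPM (log2 difference 2.56, SE 0.09) and HLA-C at 760 and 831 TPM (4.10, SE 0.10), whereas HLA-E, at 74.9 and 85.7 TPM, was within the range of the KYSE140 libraries (0.30, SE 0.09). IFI27 was at 254 and 395 TPM (7.07, SE 0.33), OAS3 at 32.5 and 36.9 TPM (6.69, SE 0.28) and ISG15 at 194 and 434 TPM (4.96, SE 0.47).

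The transcription factors were divided: IRF7, given above, and IRF1 were called higher in SKMES1, and IRF9 and STAT2 were not. IRF9 was at 20.8 and 16.8 TPM in the SKMES1 controls (log2 difference 0.19, SE 0.19, adjusted p = 0.428), below each of the SOX2 knockout libraries of KYSE140. STAT2 (-0.73, SE 0.13) and USP18 (-0.92, SE 0.16) were lower in SKMES1, and IRF1 was higher (1.55, SE 0.23). SOCS1, outside the members, was lower as well (-3.58, SE 0.23). The leukocyte list summed to 70.6 and 137 TPM in these controls, and both of its tested genes, CD68 and CD14, were called higher than in KYSE140. CD68 was at 66.7 and 132 TPM and CD14 at 2.99 and 3.79 TPM, with PTPRC at 0.08 TPM or less, and the class II chaperone gene CD74 was at 20.02 and 26.02 TPM.

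Activation of e1 in SKMES1 asked whether the members fall when SOX2 is switched on. None was called: 43 of the 44 rows were tested with edgeR, 0 passed, 3 had an unadjusted p under 0.05, and DESeq2 and limma also called 0, where edgeR called 0.188% of all genes tested. The median log2 fold change was -0.16 over the tested members and 0.00 over all genes, and BST2 was the row not tested. ISG15 was at 194 and 434 TPM with the control guides and at 221 and 222 TPM with the e1 guides, where the control values lay on both sides of the e1 values (log2 fold change -0.55, SE 0.34, adjusted p = 0.527). IFIT1 was at 13.0 and 37.7 TPM against 19.7 and 13.2 TPM, B2M at 3515 and 3734 TPM against 3650 and 3230 TPM, and IFI6 at 68.4 and 81.5 TPM against 86.1 and 65.9 TPM, and all 3 overlapped. IRF1 was lower without overlap, at 32.2 and 24.8 TPM against 22.4 and 20.9 TPM (log2 fold change -0.67, SE 0.21, adjusted p = 0.273). HLA-B, at 521 and 763 TPM against 490 and 474 TPM (-0.46, SE 0.18), HLA-C (-0.31, SE 0.11) and IRF9 (0.36, SE 0.17) did not pass.

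The second control guide bears on this comparison. Of 42 rows at 1 TPM or more in both controls, 8 were over 2-fold higher in the second and 0 in the first, OAS2 by 4.28-fold, OASL by 3.59-fold, IFIT2 by 3.00-fold and ISG15 by 2.23-fold among them. The share over all genes was not counted. These controls also differed most of all pairs over all genes (chi-square relative to its degrees of freedom 28.8), so the difference is not shown to be particular to the members. Without the second control 1 member was called, IRF1, which was lower (-0.93), while 1.72% of all genes tested were called. Without the first, 4 were called, all lower, ISG15 (-0.99) and HLA-B (-0.69) among them, while 4.90% of all genes tested were called. IFIT1 (log2 fold change -0.68, SE 0.49) and OASL (-0.20, SE 0.62) had wide errors in the fit of all 4 libraries.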

How the data were processed

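Poly-A RNA libraries of 17 cultures were analysed. Reads were aligned by the authors to hg19 with Bowtie2, and RSEM gave the values of GENCODE genes (versions and strand setting not given in the sources used here). The deposited tables hold expected counts, TPM and FPKM per gene and library. FPKM was not used. The members and lists were chosen with earlier results of these data known. Expected counts were rounded and tested with edgeR 4.0.16 in R 4.3.3: filterByExpr (minimum count 10, minimum total 15), TMM factors, quasi-likelihood test and Benjamini-Hochberg adjustment. SE is the log2 fold change over the square root of F. Only the groups compared entered each fit, except that the comparisons among KYSE140 controls shared 1 fit of 3 groups. Deposited TPM are shown as levels.

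All members may be named. Full statistics went to up to 6 risen and 6 fallen called members with the smallest p and no TPM overlap, and to a fixed set of 12 (IRF1, IRF9, STAT2, ISG15, IFI6, IFI27, B2M, HLA-B, HLA-C, HLA-E, TAP1 and PSMB9). Others were added for their role after their values were seen. The alternatives were RLE factors, library sizes alone, no filter, a mean of 50 counts, no or a 2-fold minimum, DESeq2 1.42.0, 1 fit of all 17 libraries, limma 3.58.1 on log2(TPM + 1) where the mean TPM reached 1, a replicate block, scaling to mitochondrially encoded genes and leaving out each library. Scripts were tested on simulated counts. Intervals and floors cover counting error only.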

Additional observations from a re-analysis of the deposited data

Results flagged for a closer look

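The 15 members whose response to e1 repression differed from that to SOX2 knockout, by the test of the difference in 1 fit of both experiments, are flagged because the same genes moved by unequal amounts in 2 experiments that share no library. For 14 the effect of e1 repression was lower, with log2 differences of -5.15 for IFI27, -3.67 for IFIT1, -3.55 for IFI6, -2.96 for IFIT2, -2.05 for HERC6, -1.68 for ISG15, -1.52 for IRF9, -1.45 for IFIH1, -1.28 for DDX58, -0.98 for PARP9, -0.95 for IRF1, -0.84 for HLA-C, -0.73 for STAT2 and -0.64 for IFIT5. For the main TAP2 row, ENSG00000204267, it was higher by 0.91. HERC6 was called in opposite directions in the 2 experiments. IFI27 passed the filter on low counts only through the knockout libraries. The calls of IFI27 and ISG15 were lost without the first CRISPRi control, at -4.99 and -1.40. No group holds 4 samples or more, so single libraries were not tested as outliers.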

How the results depend on the processing

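The members called numbered 20 with e1 repression, 8 with a mean of at least 50 counts and 11 with limma on log2(TPM + 1). With ARV-771 the members called numbered 14 of 25, 9 of 25 at a 2-fold minimum and 8 of 24 with limma. The shares over all genes were 52.9%, 28.2% and 48.9%. With e1 activation the members called numbered 0 of 43, 6 of 44 without the filter and 1 of 44 in 1 fit of all libraries, all lower. The shares over all genes were 0.188%, 4.60% and 4.76%. The repression and knockout difference gave 15 of 38 and, at a 2-fold minimum, 9 of 38, beside 16.6% and 7.06% of all genes. Between Cas9 and CRISPRi controls 4 were called, 9 with no minimum fold, 2 at a 2-fold minimum and 1 with limma. In the same order, 7.82%, 25.0%, 3.08% and 4.35% of all genes were called. Between DMSO and CRISPRi controls 3 were called and 6 with no minimum fold. With a mean of 50 counts, a 2-fold minimum, DESeq2, all libraries in 1 fit and limma, 1 each was called. In the same order, 4.26%, 21.4%, 4.23%, 1.46%, 2.48%, 1.92% and 1.48% of all genes were called. DESeq2 gave DDX60 and IFI6 no adjusted p there. The SOX2 knockout (31) and the line comparison (37) stayed within 1.5 times under the alternatives run. Their main fits called 29.7% and 55.6% of all genes.

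Leaving out each library gave 15 to 21 with e1 repression, 29 to 31 in the knockout, 11 to 16 with ARV-771, 0 to 4 with e1 activation (4 without the first control guide and 1 without the second), 11 to 16 for the difference, 36 to 37 between lines, 3 to 7 between Cas9 and CRISPRi controls (7 without the AAVS1 guide) and 1 to 4 between DMSO and CRISPRi controls (1 without DMSO replicate A). With ARV-771 the direction turned for the median of the members with limma (-0.25) and the mitochondrial scale (-0.61), for HLA-E (-0.12 and -0.42) and the main TAP2 row (-0.29 and -0.28) on both, and on the mitochondrial scale for B2M (-0.02), HLA-B (-0.08), HLA-C (-0.27), TAP1 (-0.24) and STAT2 (-1.06). The scale's own shift of all genes to -1.07 is part of these values.

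Same-numbered samples shared only a number: their deviations correlated at 0.02 with e1 repression, -0.03 with ARV-771 and 0.03 between lines. A replicate block gave 21, 14 and 37 members called, beside 20.4%, 52.5% and 54.5% of all genes.

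Depth limits the genes near 0 in KYSE140, where 1 to 3 counts set the ratio.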
